A study of Salmo salar with 6 samples.

Results

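Cytokines, chemokines, their receptors and the proteins that restrain them were followed in head kidney RNA of Atlantic salmon from 2 diets. The genes were taken by symbol, as those starting with ccl, ccr, cxcl, cxcr, tnf, ifn, tgfb, socs, or il and a digit. Left out were tnfrsf13b and ccr symbols with no digit after them. The rule uses symbols alone. The salmon gene table held 86 such genes, and 62 of them had a probe on the array, of 25460 genes with a probe in all. By role they were 28 ligands, 22 receptors, 7 inhibitors and 5 other proteins that share the name of a cytokine. The other 24 genes of the table, the chemokine receptor cxcr3 and interleukin-8 (il8) among them, had no matching probe. Salmon genes known only by a locus number cannot be found by symbol.

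The tested fish ate a diet with 0.1% of MPLE, an additive from sage and lemon verbena that the labels describe by its ursolic acid, other triterpenes, verbascoside and polyphenols. The control fish ate the basal diet, with 0% MPLE. Fish of both diets were unvaccinated juveniles of about 252 g, treated with hydrogen peroxide and formaldehyde on arrival and sampled at day 133 of feeding. Head kidney RNA of 18 fish per diet went into 3 pools of 6 fish each, and each pool was hybridised to 1 one-colour array, so a value is that of a pool and not of a fish.

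Cytokines are secreted proteins by which leukocytes and stromal cells instruct each other, and chemokines are the subgroup that directs cell movement. Each acts through a membrane receptor. Most interleukin and interferon receptors pass the signal to JAK kinases and STAT factors, the receptors of the IL-1 and TNF families lead to NF-kB, and those of the TGF-beta family to Smad proteins. Decoy receptors, soluble binding proteins, SOCS proteins and ubiquitin-editing enzymes limit these signals. The head kidney of bony fish is both their bone marrow equivalent and a lymphoid organ, and it also contains steroid-producing and catecholamine-producing cells, so cytokine genes there are read in a mixture of progenitors, myeloid cells, lymphocytes and endocrine cells.

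Levels below are log2 processed signals minus each array's 75th percentile, and a change is the MPLE level minus the control level on that scale. Levels of different genes come from different probes and are not set against each other. The arrays differed in brightness: the 75th percentile was 499 to 710 intensity units on MPLE arrays and 138 to 470 on control arrays, with control pool 3 the dimmest. Control pool 3 also had the most outlier spots, 205 of 42438, against 6 to 189 on the other arrays. Every array had a slide to itself, 0 slides and 0 slide positions were shared by the diets, and all control arrays came first in the scan order. Diet cannot be told apart from slide or scan order. Of the spike-in probes, E1A_r60_n9 was 2.16 higher on MPLE arrays, and E1A_r60_3, mostly not above background on control arrays, was at least 5.35-fold higher. The median SD of the 28 cytokine system genes above background on all arrays was 0.177 among MPLE pools and 0.443 among control pools, close to the 0.172 and 0.439 of all such probes. Of 37 cell type markers tested, 32 were well above background on all 6 arrays. These included the steroid synthesis genes star and hsd3b1, the B cell gene cd79b and the neutrophil gene mpx, and also all 4 skeletal muscle markers. Among interrenal and chromaffin markers, the steroid enzyme cyp17a1 was above background on 1 array and tyrosine hydroxylase (th) on 4, and neither was tested.

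Of the 62 genes, 28 (45.2%) were well above background on all 6 arrays, against 39.8% of all 42386 probes, and 11 were above it on no array. By role, 10 of 28 ligands, 12 of 22 receptors, 3 of 7 inhibitors and 3 of 5 other proteins were above background on every array. The MPLE arrays showed 42, 50 and 42 of the 62 genes, and the control arrays 43, 42 and 30. The low count in control pool 3 goes with the dimness of that array, which showed 42.5% of all probes above background, against 58.5% to 77.8% on the other 5. Detection did not follow brightness among those 5. MPLE pool 2 showed 77.8% at a 75th percentile of 499, and MPLE pool 1 showed 58.6% at 710. The lowest level called above background was -6.05 on MPLE pool 2, against -4.44 to -3.65 on the other arrays.

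**Figure D1:**
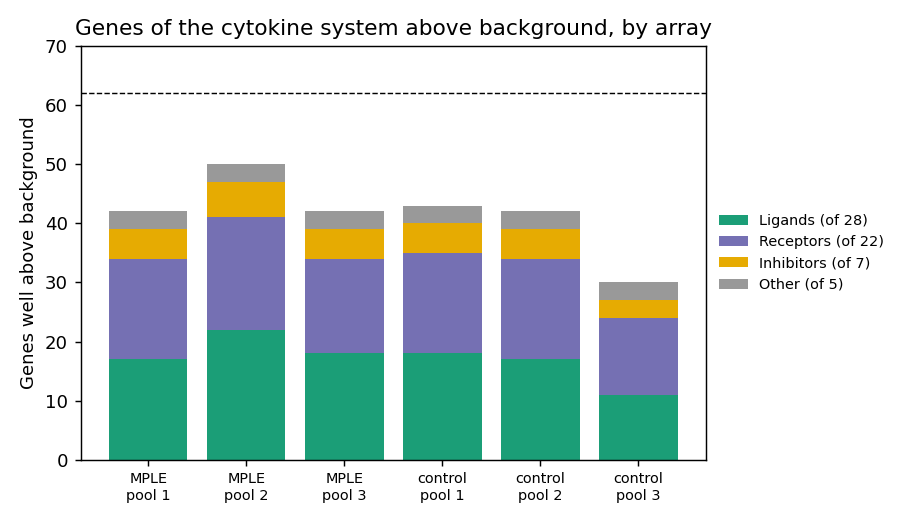
Number of cytokine system genes well above background on each array (vertical axis, genes; horizontal axis, pools of the 2 diets), stacked by role, with the dashed line at all 62 genes. Control pool 3 shows 30 genes and the other arrays 42 to 50, and its 11 ligands and 13 receptors are fewer than on any other array.

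The 11 genes above background on no array included ligands of adaptive and inflammatory responses. They were the ligands il17a/f1, il21, tnf-alpha-2, tnfsf11 (RANKL, the osteoclast factor) and tnfsf13 (APRIL, a plasma cell survival factor), the receptors cxcr2, il11ra and il23r, the inhibitor socs4, and il4i1 and il1rapl2. Their levels ran from -7.94 for il4i1 to -3.19 for il21 on the log2 scale, where spots are not told from background, and no change is given for them. A further 12 genes were above background on 1 to 4 arrays but not on all 3 of either diet, and they were not tested either. These were the ligands ccl27a, il12b2, il17d, il19l, tgfb5, tnfsf10l and tnfsf12, the receptors cxcr5, il20ra, il21r.1 and tnfrsf21, and the decoy receptor tnfrsf11b.

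Among these, single pools stood out. The level of cxcr5, the receptor that guides B cells to follicles in mammals, was -2.14, -4.23 and -4.60 in MPLE pools and -3.05, -0.53 and -4.86 in control pools, with control pool 2 alone far above the rest. The level of il19l, a ligand of the IL-10 family, was -2.26, -5.75 and -4.59 in MPLE pools and -4.78, -1.53 and -3.91 in control pools. Here too, 1 pool of each diet was high and the diets overlapped. The TRAIL-like ligand tnfsf10l, of a family that triggers cell death, was at -3.99, -4.57 and -4.01 in MPLE pools and -3.08, -2.03 and -3.25 in control pools. Its MPLE pools lay below its control pools, but it was above background on 1 MPLE array and 2 control arrays.

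The question put to the remaining 39 genes was whether their transcript levels differed between the diets. None passed the adjusted threshold of 0.05 by limma (Benjamini-Hochberg over 23130 probes), where 0.342% of all probes did (0.303% higher and 0.0389% lower with MPLE). Their adjusted p ran from 0.133 to 0.975. At an unadjusted p under 0.05, 9 of the 39 were higher with MPLE (23.1%, against 11.5% of all probes) and 1 was lower (2.56%, against 6.24%). The 9 were il6, ifng, cxcl19, il6ra, il22ra2, socs5b, tnfaip3, tnfaip2b and tnfaip6, and the lower one was tgfb1a. By role, the higher ones were 3 of 16 ligands (18.8%), 1 of 15 receptors (6.67%), 3 of 5 inhibitors and 2 of 3 other proteins. The pooled share thus does not describe ligands and receptors taken apart. After normexp background correction, 3 of the 39 genes were higher at an unadjusted p under 0.05, beside 1847 of 23130 probes. The 3 MPLE pools lay wholly above the 3 control pools for 11 genes, where 16.5% of all probes did, and wholly below for 3, where 12.7% did, together 14 of 39 against 29.2% of all probes. The change was positive for 26 of 39 genes, against 49.5% of all probes. The median change was 0.32 over the 39 genes and -0.01 over all probes tested.

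The filter on dim probes bears on these counts. Of the 39 genes, 11 were not above background on every array, and all 11 had entered through the MPLE arrays, where each was above background on all 3. Such genes had to be bright with MPLE, and 9 of the 11 had a positive change. They included ifng, cxcl19, tnfaip3 and socs5b. Among the 28 genes above background on all 6 arrays, the median was 0.20, against -0.13 for all such probes. Of these 28, 17 changes were positive (60.7%, against 40.2% of all such probes), 5 were higher at unadjusted p (17.9%, against 7.59%) and 1 was lower (3.57%, against 7.09%). Fewer cells that express a gene and less of its RNA in each cell cannot be told apart in pooled tissue RNA.

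**Figure D2:**
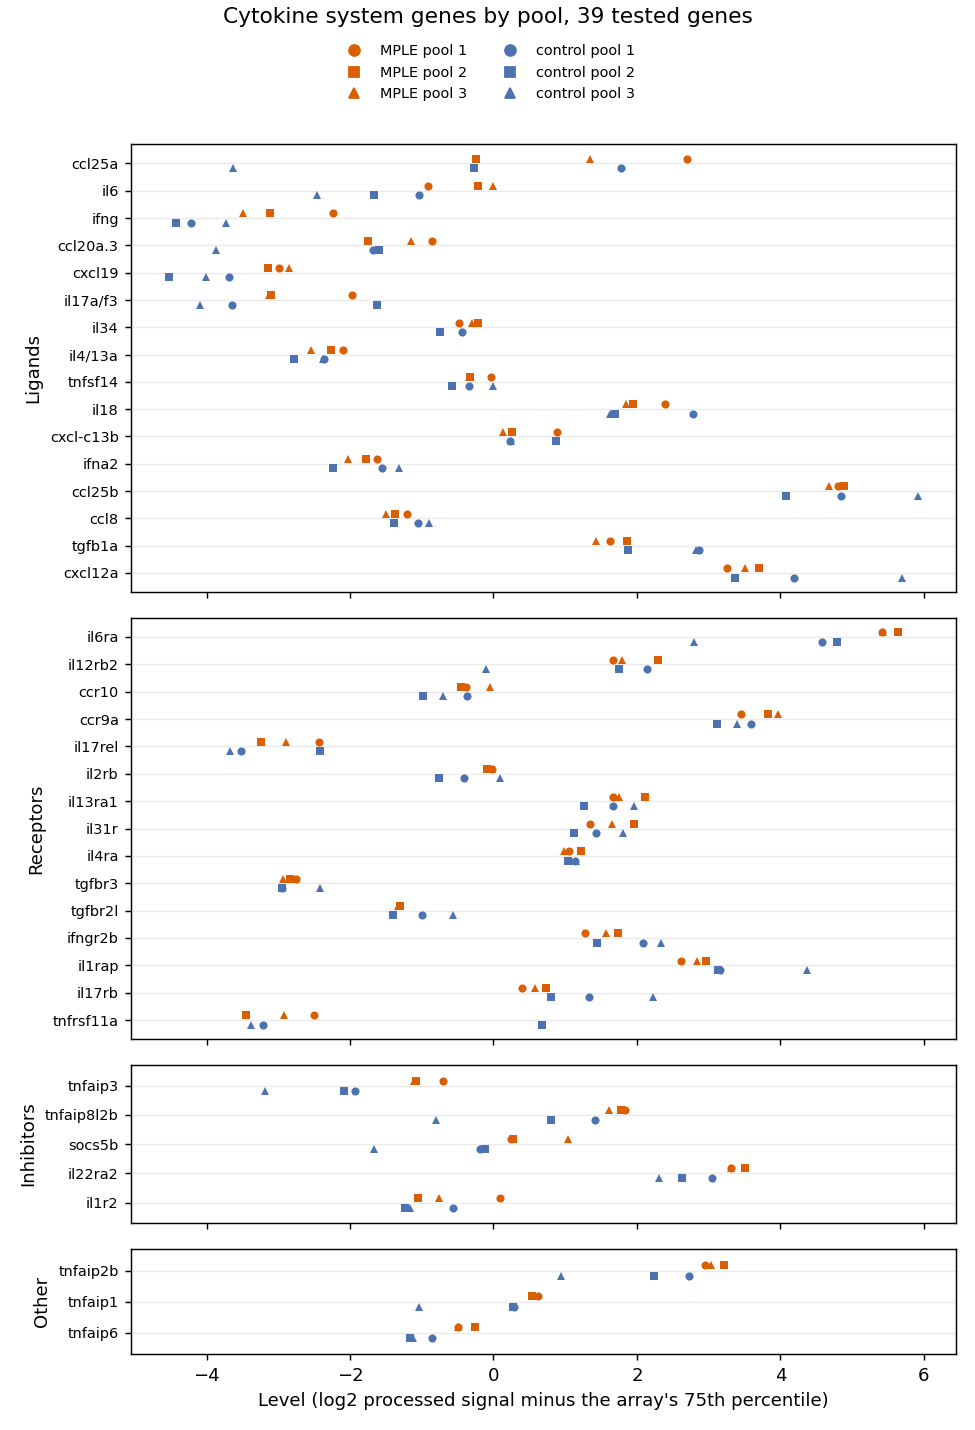
Level of each of the 39 tested genes (horizontal axis, log2 processed signal minus the array's 75th percentile) by pool, with genes grouped by role. MPLE pools are orange and drawn above the blue control pools. The MPLE pools of a gene mostly lie close together, while control pool 3 is often the farthest control value, low for il6ra and high for cxcl12a.

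Among the ligands, the pro-inflammatory cytokines il6 and ifng and the chemokine cxcl19 had the smallest p of those with a positive change, and tgfb1a of those with a negative change. The genes ifng and cxcl19 passed the filter through the MPLE arrays only, so they had to be bright with MPLE. Of 16 ligands tested, 10 had positive and 6 negative changes, with a median of 0.14. Of the 10 above background on all arrays, 4 were positive and 6 negative, with a median of -0.07. At an unadjusted p under 0.05, 1 of these 10 was higher (10%, against 7.59% of all such probes).

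The level of il6, which drives acute phase and B cell responses, was -0.91, -0.21 and -0.01 in MPLE pools and -1.04, -1.66 and -2.47 in control pools. The groups did not overlap, though MPLE pool 1 and control pool 1 were close. The change was 1.34 (SE 0.43, 2.54-fold, adjusted p = 0.189 by limma). Without control pool 3, the lowest of the 6, it was 0.97.

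Interferon gamma (ifng), the macrophage-activating cytokine of T and NK cells, was at -2.24, -3.12 and -3.49 in MPLE pools and -4.22, -4.43 and -3.73 in control pools. It was well above background on all MPLE arrays and on no control array, so the control level is only a bound. For this bound, each control pool was taken at the higher of its measured level and its array's lowest signal above background. So taken, ifng was at least 1.97-fold higher with MPLE on this scale (adjusted p = 0.195 by limma for the full difference of 1.18). The full difference was 0.47 after normexp background correction and 0.73 with spike-in centring, so the bound does not hold across settings. Of the 62 genes, ifng was the only one above background on all arrays of 1 diet and none of the other.

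The CXC chemokine cxcl19 was at -2.99, -3.14 and -2.86 in MPLE pools and -3.68, -4.53 and -4.01 in control pools, with no overlap. Its change was 1.08 (SE 0.29, adjusted p = 0.136 by limma), and it was 1.11 without control pool 3. Of the control arrays, 1 showed the probe above background. After normexp correction the change was 0.26. The chemokine ccl20a.3, named after the mammalian ligand of CCR6 on lymphocytes and dendritic cells, was at -0.85, -1.76 and -1.16 in MPLE pools and -1.68, -1.60 and -3.87 in control pools. The diets overlapped, and 1 control pool set most of the difference: the change was 1.13 (SE 0.63, adjusted p = 0.381 by limma) and 0.38 without control pool 3.

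Transforming growth factor beta 1 (tgfb1a), which restrains lymphocytes and promotes matrix deposition, was at 1.63, 1.86 and 1.44 in MPLE pools and 2.87, 1.88 and 2.83 in control pools. MPLE pool 2 lay just below control pool 2, and the other control pools were well apart. The change was -0.88 (SE 0.34, adjusted p = 0.246 by limma), and it lay between -1.33 and -0.71 over the alternatives run. The other ligand of this family, tgfb5, was not tested.

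Homeostatic chemokines overlapped between the diets. The level of cxcl12a, which holds blood stem cells in the marrow through CXCR4 in mammals, was 3.26, 3.71 and 3.51 in MPLE pools and 4.18, 3.37 and 5.69 in control pools. The change of -0.92 (SE 0.56, adjusted p = 0.408 by limma) was -0.29 without control pool 3, whose level was the highest. The level of ccl25b, a CC25 chemokine of the kind that draws T cell precursors to the thymus in mammals, was 4.80, 4.89 and 4.68 in MPLE pools and 4.84, 4.08 and 5.92 in control pools. Its MPLE pools lay within the range of its control pools, with a change of -0.15 (95% interval -1.24 to 0.93, adjusted p = 0.869 by limma) that was 0.33 without control pool 3.

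Its paralogue ccl25a varied far more between pools of the same diet. It was at 2.71, -0.25 and 1.34 in MPLE pools and 1.78, -0.27 and -3.63 in control pools, so the SD was 1.48 among MPLE pools and 2.73 among control pools. A second ccl25a probe was above background on 0 arrays. The other tested ligands overlapped between diets. The mean levels of il18, a partner of IL-12 in inducing interferon gamma in mammals, were 2.06 ± 0.29 in MPLE pools and 2.03 ± 0.65 in control pools (SD, n = 3 each). The macrophage growth factor il34 was at -0.33 ± 0.13 in MPLE pools and -0.65 ± 0.18 in control pools, and the monocyte chemokine ccl8 at -1.36 ± 0.15 in MPLE pools and -1.11 ± 0.25 in control pools (SD, n = 3 each). The type I interferon ifna2 averaged -1.81 in MPLE pools and -1.70 in control pools, and cxcl-c13b, of the B cell chemokine type CXCL13, averaged 0.43 in MPLE pools and 0.45 in control pools. The TNF family ligand tnfsf14 (LIGHT) averaged -0.24 in MPLE pools and -0.31 in control pools, the neutrophil-recruiting type cytokine il17a/f3 -2.74 and -3.12, and the type 2 cytokine il4/13a -2.30 and -2.51, in the same order of diets. The second il4/13a probe averaged -2.73 in MPLE pools and -2.98 in control pools, the same direction as the first.

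Among the receptors, il6ra alone was at an unadjusted p under 0.05 (6.67% of those tested, against 11.5% of all probes higher at that p). Of 15 receptors tested, 8 had positive and 7 negative changes, with a median of 0.20. Of the 12 above background on all arrays, 7 were positive.

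The IL-6 receptor chain il6ra was at 5.42, 5.64 and 5.43 in MPLE pools and 4.58, 4.79 and 2.79 in control pools. No control pool reached the MPLE pools, and control pool 3 was far below the other 2. The change was 1.44 (SE 0.53, 2.72-fold, adjusted p = 0.231 by limma) and 0.81 without control pool 3. Its unadjusted p was under 0.05 in 11 of the 17 alternatives and 0.151 with spike-in centring.

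Some receptors of IL-1 and IL-17 family cytokines had the opposite sign, while il17rel (0.35) and the decoy receptor il1r2 (0.41) had positive changes. The receptor il17rb, which binds IL-25 in mammals, was at 0.39, 0.73 and 0.58 in MPLE pools and 1.33, 0.81 and 2.22 in control pools, a change of -0.89 (SE 0.38, adjusted p = 0.291 by limma). The shared IL-1 receptor accessory chain il1rap was at 2.62, 2.97 and 2.84 in MPLE pools and 3.16, 3.14 and 4.37 in control pools, a change of -0.74 (SE 0.38, adjusted p = 0.348 by limma). In both, all MPLE pools lay below all control pools, control pool 3 was the highest, and the change was smaller without it, -0.50 for il17rb and -0.34 for il1rap.

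The chemokine receptors ccr9a and ccr10, which in mammals guide lymphocytes to the gut and the skin, overlapped between diets. The level of ccr9a was 3.45, 3.83 and 3.97 in MPLE pools and 3.59, 3.11 and 3.40 in control pools, a change of 0.38 (95% interval -0.24 to 1.00, adjusted p = 0.453 by limma). The level of ccr10 was -0.39, -0.45 and -0.04 in MPLE pools and -0.37, -0.98 and -0.70 in control pools, a change of 0.39 (95% interval -0.24 to 1.02, adjusted p = 0.445 by limma). With spike-in centring the changes were -0.06 for ccr9a and -0.05 for ccr10.

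The other receptors overlapped between diets as well. The IL-4 receptor chain il4ra had pools close together, at 1.06, 1.21 and 0.99 in MPLE pools and 1.14, 1.04 and 1.16 in control pools. Its companion chain il13ra1 averaged 1.84 in MPLE pools and 1.63 in control pools. The IL-2 receptor beta chain il2rb averaged -0.05 in MPLE pools and -0.36 in control pools, and the interferon gamma receptor chain ifngr2b 1.53 in MPLE pools and 1.95 in control pools. The receptor il12rb2, which marks Th1 cells in mammals, was at 1.67, 2.29 and 1.79 in MPLE pools and 2.14, 1.75 and -0.10 in control pools, so only control pool 3 was low. The TGF-beta receptor tgfbr2l averaged -1.32 in MPLE pools, of which pool 1 was left out as an outlier spot, and -0.99 in control pools. The co-receptor tgfbr3 averaged -2.84 in MPLE pools and -2.77 in control pools. The cytokine receptor il31r averaged 1.65 in MPLE pools and 1.46 in control pools, and il17rel, an IL-17 receptor E-like protein, -2.86 in MPLE pools and -3.21 in control pools. The receptor of RANKL, tnfrsf11a, was at -2.51, -3.45 and -2.92 in MPLE pools and -3.21, 0.68 and -3.38 in control pools, with control pool 2 alone above the other 5.

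All 5 inhibitors tested had positive changes (49.5% of all probes did), with a median of 1.17, and in 4 the MPLE pools lay wholly above the control pools (16.5% of all probes). Of the 3 above background on every array, 2 had no overlap (12.8% of such probes), and the median was 0.72. The genes tnfaip3 and socs5b passed the filter through the MPLE arrays only, so they had to be bright with MPLE. The median of 1.17 is the change of socs5b. None passed the adjusted threshold by limma, and 3 of the 5 were higher at an unadjusted p under 0.05 (11.5% of all probes were).

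The ubiquitin-editing enzyme tnfaip3, known as A20, which shuts off NF-kB signalling, was at -0.70, -1.07 and -1.10 in MPLE pools and -1.93, -2.08 and -3.19 in control pools. The gap between the diets was wider than the spread within the MPLE pools but narrower than that within the control pools. The change was 1.44 (SE 0.38, 2.71-fold, adjusted p = 0.133 by limma), the smallest p of all 39 genes, and 1.05 without control pool 3. Detection was on 2 of the 3 control arrays.

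The suppressor of cytokine signalling socs5b, which restrains IL-4 and growth factor receptors in mammals, was at 0.25, 0.27 and 1.03 in MPLE pools and -0.18, -0.12 and -1.66 in control pools. The 2 higher control pools lay just below the MPLE pools, and the change of 1.17 (SE 0.48, adjusted p = 0.268 by limma) was 0.67 without control pool 3. Of the control arrays, 2 showed socs5b above background. The other SOCS gene on the array, socs4, was above background on none.

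The soluble receptor il22ra2, which binds IL-22 and keeps it from its receptor in mammals, was at 3.32, 3.51 and 3.32 in MPLE pools and 3.05, 2.63 and 2.31 in control pools. All MPLE pools lay above all control pools, with a change of 0.72 (SE 0.27, adjusted p = 0.24 by limma) and 0.54 without control pool 3. With spike-in centring the change was 0.27. The protein tnfaip8l2b, whose mouse counterpart TIPE2 dampens Toll-like and T cell receptor signalling, was at 1.83, 1.77 and 1.61 in MPLE pools and 1.42, 0.80 and -0.80 in control pools. The control pools were widely spread, and the change of 1.26 (SE 0.55, adjusted p = 0.29 by limma) was 0.63 without control pool 3.

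The decoy receptor il1r2, which takes up IL-1 without signalling, was at 0.09, -1.06 and -0.75 in MPLE pools and -0.56, -1.24 and -1.17 in control pools. The diets overlapped, with a change of 0.41 (95% interval -0.46 to 1.29, adjusted p = 0.551 by limma). The osteoprotegerin gene tnfrsf11b, decoy receptor for RANKL, was above background on 1 of the 6 arrays.

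**Figure D3:**
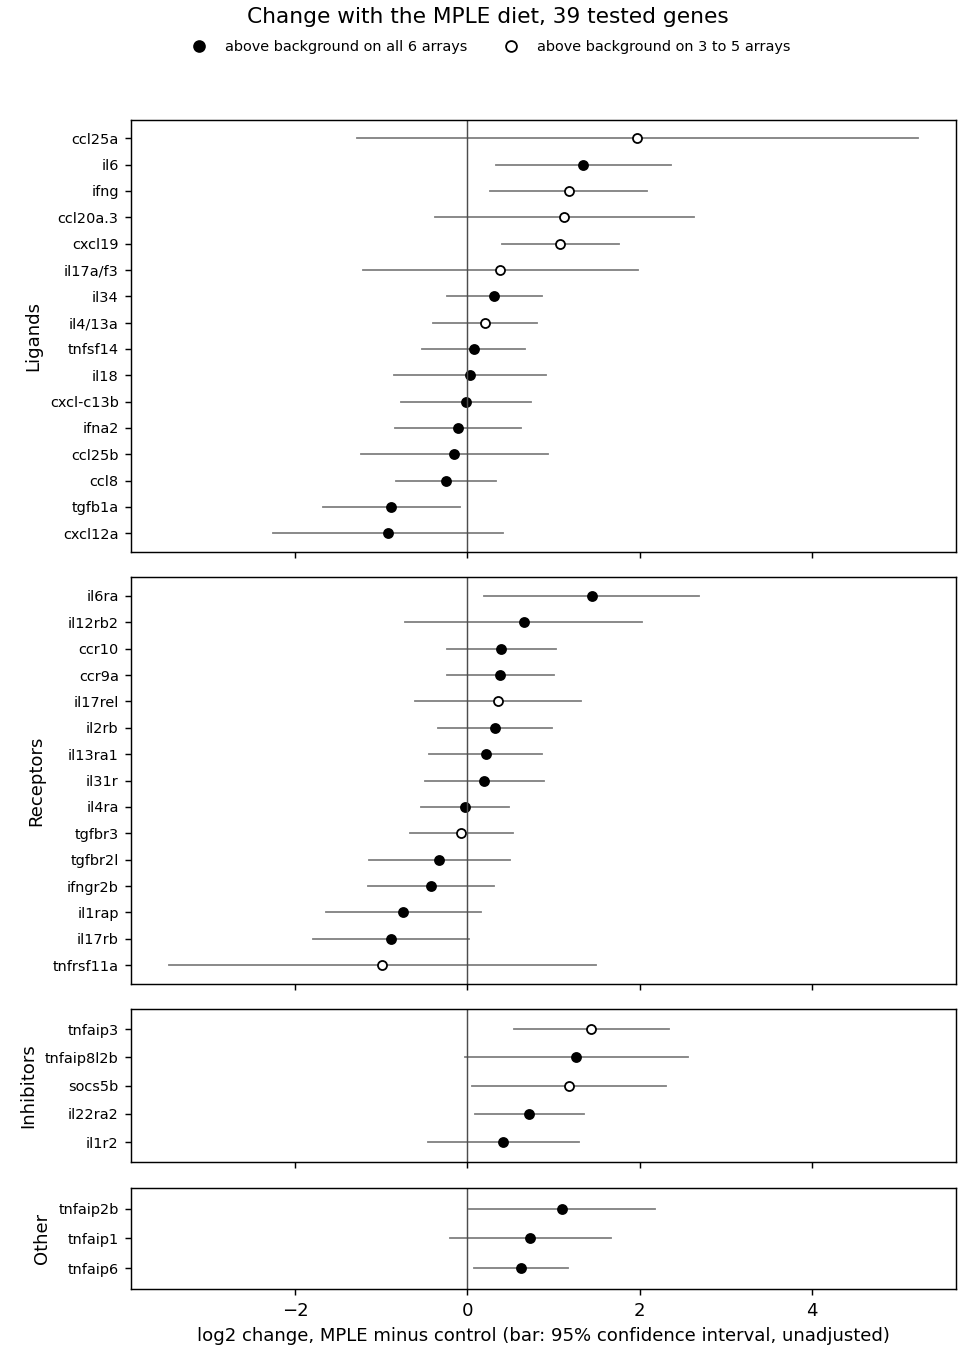
log2 change (MPLE minus control, horizontal axis) of the 39 tested genes with its unadjusted 95% confidence interval (bars), grouped by role, with filled points for genes above background on all 6 arrays. Ligands and receptors fall on both sides of 0, the 5 inhibitors and 3 other proteins lie above it, and no gene passes the adjusted threshold.

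Of the 5 other proteins, 3 were tested, and each had MPLE pools wholly above its control pools, which held for 16.5% of all probes and 12.8% of those above background on all arrays. These 3 carry TNF in their name because the human genes were found as TNF-induced transcripts, and they are no cytokines. The hyaluronan-binding secreted protein tnfaip6 (TSG-6), which limits neutrophil entry in mice, was at -0.50, -0.26 and -0.50 in MPLE pools and -0.85, -1.16 and -1.12 in control pools. Its pools were close together in both diets, and the change was 0.62 (SE 0.23, adjusted p = 0.235 by limma) and 0.59 without control pool 3. After normexp correction it was 0.22, and with spike-in centring 0.18.

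The membrane protrusion protein tnfaip2b was at 2.95, 3.22 and 3.04 in MPLE pools and 2.72, 2.24 and 0.94 in control pools. Control pool 3 was again far below, and the change of 1.099 (SE 0.46, adjusted p = 0.278 by limma) was 0.59 without it. The ubiquitin ligase adaptor tnfaip1 was at 0.62, 0.53 and 0.56 in MPLE pools and 0.28, 0.28 and -1.04 in control pools, a change of 0.73 (SE 0.39, adjusted p = 0.365 by limma). Without control pool 3 the change of tnfaip1 was 0.29.

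Read along ligand and receptor, the pairs on the array did not share 1 pattern. For IL-6, both ligand and receptor chain had positive changes, 1.34 for il6 and 1.44 for il6ra, and neither overlapped between diets. For interferon gamma, ifng was above background with MPLE alone, while the mean of its receptor chain ifngr2b was lower in MPLE pools, within the spread of the pools. For TGF-beta, tgfb1a, tgfbr2l and tgfbr3 all had lower means with MPLE, and tgfb1a alone of these had no overlap. The sign turned for tgfbr2l with outlier spots kept (0.18), and for tgfbr3 after normexp correction (0.11), in the deposited values (0.54) and without control pool 3 (0.11). For CCL25, neither ccl25b nor ccr9a separated the diets. For the RANKL axis, both the ligand tnfsf11 and the decoy tnfrsf11b were below background on most arrays.

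The size of several of these changes rested on control pool 3. Among the 27 genes above background on all arrays and with a value on each, control pool 3 was the lowest array for 9 and the highest for 9, and for all such probes it was the lowest for 20.2% and the highest for 47.7%. Without it, 10 of the 39 genes were at an unadjusted p under 0.05, all higher with MPLE, and the median change was 0.29. Of the 23098 probes tested without it, 2818 were higher and 1400 lower at that p. These 10 were not the same set as with all arrays, since tgfb1a and socs5b were no longer among them. The changes of il6ra, tnfaip8l2b, socs5b, tnfaip2b and tnfaip1 were each smaller by more than 1.5 times without control pool 3. So were, among others, the positive changes of ccl20a.3 and ccl25a and the negative changes of cxcl12a, il17rb and il1rap. Those of cxcl19, ifng and tnfaip6 were 1.11, 1.37 and 0.59, close to the values with all arrays or above them. Without control pool 2 the count was also 10, with 6 higher and 4 lower, beside 2762 higher and 2565 lower of 22943 probes.

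**Figure D4:**
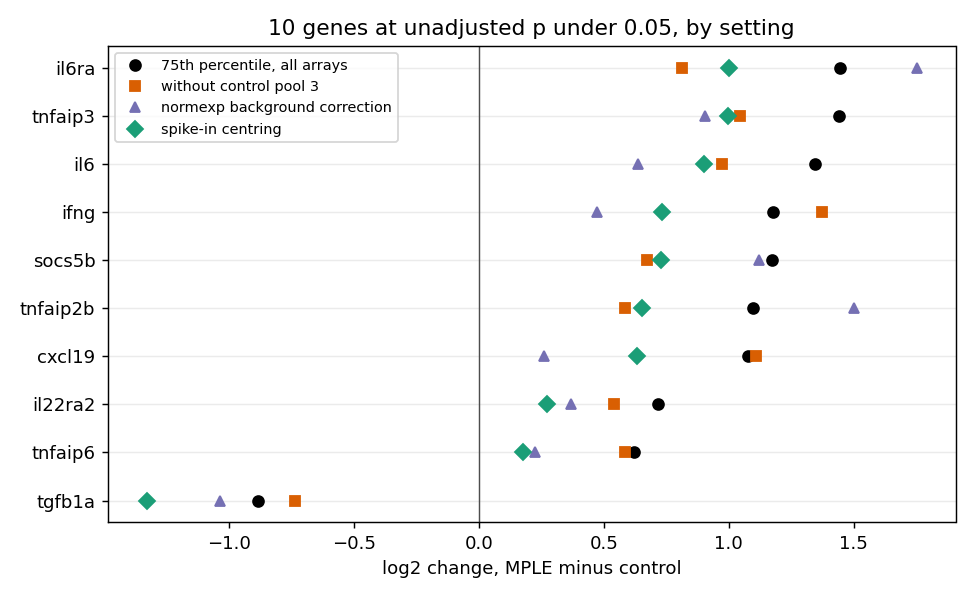
log2 change (MPLE minus control, horizontal axis) of the 10 genes at an unadjusted p under 0.05, with all arrays, without control pool 3, after normexp background correction and with arrays centred on spike-in probes. All 10 keep their sign in the 4 settings, and the sizes differ, as for cxcl19 with 1.08, 1.11, 0.26 and 0.63.

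The genes that carry cytokine signals inside the cell were read from 4 lists. Probes were found for 9 of 27 JAK-STAT genes, 11 of 34 genes of TNF, IL-1 and NF-kB signalling, 5 of 28 TGF-beta and Smad genes and 11 of 22 interferon response genes, with stat2 in both the first and the last. None of the 34 entries tested passed the adjusted threshold, against 0.342% of all probes. Of 8 JAK-STAT genes, 2 had positive changes, with a median of -0.36. All 8 were above background on every array, and 40.2% of all such probes had positive changes. At an unadjusted p under 0.05 there were 0 of them, where 7.59% of such probes were higher and 7.09% lower. The kinase jak2b was at -2.82, -2.57 and -2.80 in MPLE pools and -2.21, -2.41 and -1.57 in control pools, a change of -0.67 (SE 0.29, adjusted p = 0.293 by limma) with no overlap. The IL-4 responsive factor stat6 had a change of -0.42 (SE 0.23, adjusted p = 0.365) and the IL-12 responsive factor stat4 one of -0.49 (SE 0.27, adjusted p = 0.378), both by limma and neither past the threshold.

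Of 10 genes between TNF or IL-1 receptors and NF-kB, 3 had positive changes, with a median of -0.23. Positive changes were seen in 49.5% of all probes and 40.2% of those above background on all arrays. Of the 10, all but irak1 and ikbkb were above background on every array. Both irak1 and ikbkb passed the filter through the MPLE arrays only. The adaptor tab3 of the TAK1 kinase was at 1.47, 1.50 and 1.50 in MPLE pools and 2.14, 1.83 and 2.37 in control pools, a change of -0.62 (SE 0.24, adjusted p = 0.253 by limma). The kinase ikbkb, which releases NF-kB, had a change of 0.86 (SE 0.49, adjusted p = 0.385 by limma). Its pools overlapped between diets, control pool 3 was far below at -3.30, and 2 control arrays showed it above background. The adaptor traf2b had a change of -0.41 (SE 0.25, adjusted p = 0.405 by limma). These genes therefore showed both signs, while tnfaip3, which acts on the same pathway, had a positive one.

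Of 5 TGF-beta signalling genes, the shared mediator smad4a and the inhibitor smad7 had unadjusted p under 0.05, with opposite signs. Of all probes tested, 17.7% were at that p. The level of smad4a was -1.70, -2.23 and -2.03 in MPLE pools and -2.98, -3.20 and -3.70 in control pools, a change of 1.31 (SE 0.29, adjusted p = 0.102 by limma). With detection on 2 of the control arrays, smad4a passed the filter through the MPLE arrays only, so it had to be bright with MPLE. The level of smad7, a target of TGF-beta that blocks its receptor, was -0.79, -1.43 and -1.30 in MPLE pools and -0.67, 0.67 and -0.36 in control pools, a change of -1.06 (SE 0.40, adjusted p = 0.244 by limma). Neither overlapped between diets, as was so for 29.2% of all probes, and smad7 and tgfb1a had the same sign. The inhibitory Smad smad6b had a change of -0.37 (SE 0.30, adjusted p = 0.509 by limma).

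Of 11 interferon response genes, 2 had positive and 9 negative changes, with a median of -0.54, and 2 were lower at an unadjusted p under 0.05. All 11 were above background on every array, and of all such probes 40.2% had positive changes and 7.09% were lower at that p. The interferon regulatory factor irf7, itself induced by type I interferon, was at -1.95, -1.83 and -2.34 in MPLE pools and -0.55, -0.91 and -1.04 in control pools. All 3 MPLE pools lay well below, with a change of -1.20 (SE 0.26, adjusted p = 0.101 by limma). The viral RNA sensor family member dhx58 had a change of -0.79 (SE 0.31, adjusted p = 0.253) and the sensor rigi one of -0.66 (SE 0.30, adjusted p = 0.306), by limma. The type I interferon gene on the array, ifna2, overlapped between diets.

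**Figure D5:**
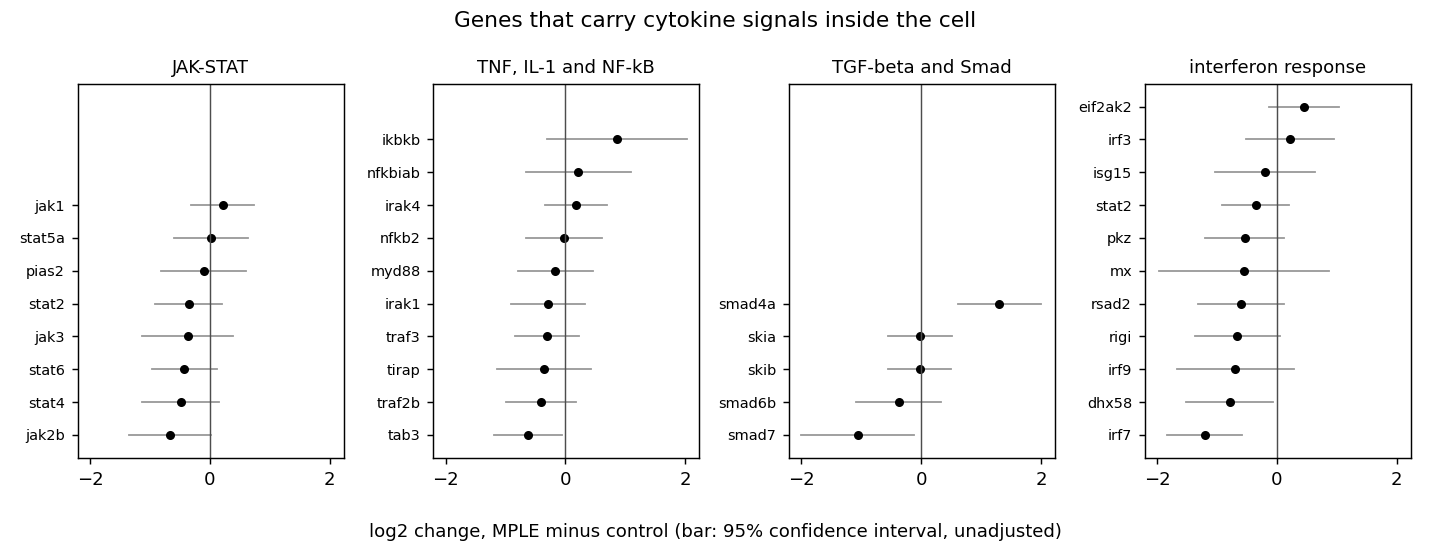
log2 change (MPLE minus control, horizontal axis) of the tested genes of 4 signalling lists with unadjusted 95% confidence intervals (bars). In the interferon response list 9 of 11 genes lie below 0, with irf7 the lowest at -1.20, and in the TGF-beta list smad4a and smad7 lie on opposite sides.

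Markers of the cells in which these genes are read were measured on the same arrays, and their part in the results above was not tested. All 4 skeletal muscle markers tested were lower with MPLE at an unadjusted p under 0.05, where 6.24% of all probes were, and their summed level was 1.63 to 2.99 in MPLE pools and 3.51 to 5.53 in control pools. Of the 6 neutrophil markers, all above background on every array, 5 had positive changes, against 40.2% of all such probes. The growth factor receptor csf3r was at 1.14 (adjusted p = 0.136) and myeloperoxidase mpx at -0.93 (adjusted p = 0.197), by limma. The summed neutrophil level was 8.32 to 8.75 in MPLE pools and 8.23 to 8.55 in control pools, with mpx missing from control pool 3. The 2 macrophage markers had negative changes, with summed levels of 5.97 to 6.15 in MPLE pools and 6.12 to 7.62 in control pools. Of the 3 T cell markers, cd8a had a change of 0.73 and no overlap, as was so for 29.2% of all probes. The pools of cd3e (change 0.81) and gata3 (change -0.35) overlapped between diets. The level of cd3e was low in control pool 3 alone, at -2.21. The summed T cell level was 1.74 to 1.80 in MPLE pools and 1.00 to 1.66 in control pools. The 4 B cell markers summed to 4.89 to 5.14 in MPLE pools and 4.84 to 5.44 in control pools. The 3 thrombocyte markers summed to 5.28 to 5.35 in MPLE pools and 5.36 to 6.31 in control pools, and the endothelial receptor kdr was at 1.09 to 1.60 and 1.75 to 3.43 in the same order. The summed levels were 7.29 to 9.35 in MPLE pools and 8.10 to 8.76 in control pools for 4 red cell markers, and 7.45 to 8.17 and 7.73 to 8.28 for 4 interrenal and chromaffin markers, where MPLE pool 2 lacked the globin hba and hsd3b1. Liver markers summed to 4.53 to 4.96 in MPLE pools and 4.70 to 5.65 in control pools over 4 genes. The sum was mostly the signal of tfa, with a change of -0.24. All 4 liver genes had negative changes, with a median of -1.56, where 49.5% of all probes had positive ones. The changes of hp, hpxa and fgg were -1.54, -1.94 and -1.58 (adjusted p = 0.225, 0.366 and 0.533 by limma). All 4 overlapped between diets. The tubule transporter slc22a6l was at -3.89 to -3.16 in MPLE pools and -2.50 to -0.15 in control pools, and the dendritic cell gene flt3 at -1.39 to -0.77 and -1.06 to -0.81. The tubule glucose transporter slc5a2 was above background on 0 arrays.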

How the data were processed

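RNA pools of head kidney, 3 per diet, were grouped by the titles in the labels, which do not give the tanks behind a pool. The p-values thus cover pool, labelling and array spread, and a tank difference cannot be told apart from diet. Per the file headers, each spot's intensity was read with Feature Extraction 10.7.3.1 and background-subtracted, without scaling between arrays. The authors also deposited log2 values for the series, which match log2 of the background-subtracted intensity within 5e-09.

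Processed intensity was turned to log2, each array's 75th percentile over 42438 spots was subtracted, outlier spots were left out and spots of a probe averaged. Probes that all 3 arrays of a diet showed well above background, with at least 2 values per diet (a minimum set after seeing the data, which left out 2 probes), were fitted with limma 3.58.1 (R 4.3.3), two-sided, with Benjamini-Hochberg adjustment over 23130 probes. The code was tested on simulated data. A gene was read at its probe of highest mean signal over all arrays. Names came from RefSeq accessions, of which 25641 probes matched the Ssal_v3.1 table. Coordinates and sequences were not used.

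Members and lists were chosen with earlier results of these data known. Pool values are given for the 5 genes of smallest p and the 2 of brightest probes in each role, for genes above background in 1 diet only, and for others chosen after their values were seen. In each signalling list the 3 genes of smallest p are named, and the 4 lists and 12 marker lists were matched by symbol. Alternatives were other scalings, background correction, filters, the deposited log2 values, all probes of a gene, a block by pool number and leaving out each array. The design text speaks of a reference design, but the files are one-colour and were read as such.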

Additional observations from a re-analysis of the deposited data

Results flagged for a closer look

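The spike-in probes, which measure RNA added to the labelling reactions and not salmon transcripts, carried a signal that differed between diets. The level of E1A_r60_n9 was 8.50 ± 0.09 on MPLE arrays and 6.34 ± 0.70 on control arrays (SD, n = 3 each), a difference of 2.16. The level of E1A_r60_3 was -1.78 ± 0.25 on MPLE arrays and -4.69 ± 0.33 on control arrays (SD, n = 3 each). All 32 spots of E1A_r60_3 were above background on each MPLE array, against 6, 9 and 1 on the control arrays. The control level is therefore a bound: the measured difference was 2.91, and against each control array's lowest signal above background the probe was at least 5.35-fold higher. Of the other 8 spike-in probes, E1A_r60_a104 was mostly not above background, and the rest differed by -0.38 to 0.72. Groups of 3 pools are too small for a check of single outlying pools.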

How the results depend on the processing

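No cytokine system gene passed the adjusted threshold by limma under any of the 17 alternatives run, where 10 were at an unadjusted p under 0.05 in the reported setting, and the smallest adjusted p over them was 0.0726, for tgfb1a with spike-in centring. The median change, 0.32, was -0.13 with spike-in centring, which moved all probes by -0.45, and -0.057 over all 62 genes without the filter on dim probes. Without 1 array it lay between 0.25 and 0.34. The count at unadjusted p was 10 in the reported setting, 9 higher and 1 lower, beside 2653 and 1443 of 23130 probes. After normexp correction it was 5, 3 higher and 2 lower, beside 1847 and 1057 of 23130 probes. In the deposited series values it was 5, all higher, beside 2208 higher of 23073 probes. Without the filter it was 6 of 62 genes, 5 higher and 1 lower, beside 2376 and 1790 of 42384 probes. The count was 3 to 10 without 1 array. Leaving out any MPLE pool gave 3, all higher, beside 1755 of 22951, 1831 of 23091 and 1589 of 22934 probes higher. With spike-in centring it was 9, with 1 higher and 8 lower. The genes counted changed too: il1rap and tnfaip8l2b entered after normexp correction. The 79 probes called overall were 24 with quantile normalization, 537 with median centring, 14 with spike-in centring, 19 after normexp correction, 8 in the deposited values, 0 without the filter and 123 with outlier spots kept. They were 0 to 135 without 1 array, and 0 without control pool 1 or any MPLE pool. The split at unadjusted p, 2653 higher and 1443 lower, was 929 and 7313 with spike-in centring, 2208 and 472 in the deposited values and 1497 and 1523 among probes above background on all arrays. A 75th percentile without outlier spots, chosen after seeing the data, gave 108 probes. Spike-in centring drew on all spike-in probes, with E1A_r60_n9 and E1A_r60_3 among them, which were 2.16 and 2.91 higher on MPLE arrays. No alternative left E1A_r60_n9 and E1A_r60_3 out, so values with spike-in centring carry the differences of these probes. The cause of their higher level on MPLE arrays was not tested. Of 20 genes named by rule, 16 kept their sign throughout, while ccr9a (-0.065), ccr10 (-0.051) and il1r2 (-0.030) turned with spike-in centring and ccl25b (-0.59 to 0.33) without 1 array. Of all 39, 21 changed sign somewhere. The pool number as a replicate block gave 249 probes and 8 genes at unadjusted p. Same-numbered pools did not deviate together (r = -0.18, -0.34 and 0.08), and pools of different number gave r from -0.32 to 0.47. The numbers were therefore not taken as pairs, though 3 pools per diet are too few to exclude a pairing. Slide was not run as a block, each slide holding 1 array.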
